A study of Mus musculus with 12 samples.

Results

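The genes described here build the lipid-linked oligosaccharide, the sugar precursor that is later moved as a block onto asparagines of new proteins. The 10 genes were taken by name from the deposited expression tables, where each had a row of its own among 24318 gene rows: Alg14, Alg13, Dpagt1, Alg1, Alg2, Alg3, Alg9, Alg6, Alg8 and Alg5. They were chosen by pathway with the FPKM values of SE-BDEV and CON-BDEV libraries known: Alg14 was selected on its difference between these vesicle groups, so its levels are given as a description.

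N2a, a mouse neuroblastoma line, was sequenced as polyadenylated RNA in 12 libraries, 4 per group. SE-BDEV libraries came from cells given brain-derived extracellular vesicles (small membrane particles that cells release) of the group named for status epilepticus, a prolonged seizure. CON-BDEV libraries came from cells given such vesicles of the CON group, an abbreviation that the labels do not spell out, and Vehicle libraries came from cells given vehicle. Whether libraries of the same group stem from separate cultures or vesicle preparations is not in the labels. The p-values therefore measure the spread between samples, which could be technical.

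The precursor grows on dolichol, a long lipid of the endoplasmic reticulum (ER) membrane. Sugars are added singly, on the cytosolic face from nucleotide sugars and, after the lipid has flipped, on the lumenal face from dolichol-linked sugars. Oligosaccharyltransferase then moves the finished chain to the protein, where it serves in folding, quality control and sorting. Dpagt1 starts the chain, and Alg13 and Alg14 act together as the next enzyme: Alg14 sits in the membrane and holds Alg13, which carries the active site. The same 3 proteins form a larger assembly in yeast.

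All 10 genes were expressed, and all passed the minimum of 1 FPKM (fragment counts divided by transcript length and library size, so that levels of different genes can be compared) used before testing. Over the 12 libraries the mean level ran from 31.1 FPKM for Alg2 through 28.6 for Alg5, 27.3 for Dpagt1, 24.3 for Alg3, 22.3 for Alg13, 21.1 for Alg14, 20.2 for Alg8, 11.9 for Alg1 and 10.9 for Alg9 to 5.21 for Alg6. The highest mean was 5.97 times the lowest. Within the Vehicle group, libraries of Alg5 and Dpagt1 overlapped in level, as did those of Alg3 and Alg13 and those of Alg14 and Alg8. The other neighbours in this order were apart in every Vehicle library.

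The libraries expressed the markers of the line in every group. All 10 neuroblastoma markers looked at were expressed, with summed levels of 1536.5 to 1716 FPKM in SE-BDEV libraries, 1621 to 1705 in CON-BDEV libraries and 1594 to 1629 in Vehicle libraries. Of 6 astrocyte markers, 0 reached a mean of 1 FPKM over the 12 libraries, and their sums were 0.744 to 1.08 in SE-BDEV libraries, 0.716 to 0.896 in CON-BDEV libraries and 1.04 to 1.25 in Vehicle libraries. Most of that sum was Aldh1l1, at 0.673 to 0.855 in SE-BDEV libraries, 0.612 to 0.849 in CON-BDEV libraries and 0.989 to 1.14 in Vehicle libraries. Gfap ran the other way, at 0.0518 to 0.133 in SE-BDEV libraries, 0 to 0.0265 in CON-BDEV libraries and 0 to 0.0254 in Vehicle libraries. Both were low beside the neuroblastoma markers. Of the endothelial list 1 of 6 genes reached 1 FPKM (Pecam1) and Cldn5 was at 0 in every library, with sums of 2.63 to 3.596 in SE-BDEV libraries, 3.17 to 3.65 in CON-BDEV libraries and 2.95 to 3.57 in Vehicle libraries. Of the forebrain neuron list 1 of 6 did (Camk2a) and Neurod6 was at 0, with sums of 5.13 to 6.03 in SE-BDEV libraries, 4.90 to 6.13 in CON-BDEV libraries and 5.87 to 6.29 in Vehicle libraries. Of the microglia list 1 of 6 did (Tmem119), with sums of 1.94 to 1.98 in SE-BDEV libraries, 1.58 to 2.47 in CON-BDEV libraries and 1.41 to 2.14 in Vehicle libraries. The part of these markers in the results was not tested. Summed oligodendrocyte markers ran from 16.8 to 19.9 in SE-BDEV libraries, 17.0 to 18.7 in CON-BDEV libraries and 17.3 to 18.8 in Vehicle libraries. Depth was estimated roughly, by taking each gene of at most 0.05 FPKM as a single fragment. It came to about 12400000 to 14300000 fragments in SE-BDEV libraries, 12200000 to 13400000 in CON-BDEV libraries and 13900000 to 14900000 in Vehicle libraries. By this estimate every Vehicle library was deeper than every CON-BDEV library, but the closest values, 13900000 and 13400000, lie near each other for so rough a measure. The part of depth in the results was not tested.

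Alg14 was higher in cells given SE-BDEV than in the other groups, while its partners Alg13 and Dpagt1 stayed within a few percent of Vehicle. The SE-BDEV libraries had 23.5, 23.4, 23.7 and 24.8 FPKM of Alg14. CON-BDEV libraries had 17.0, 19.7, 19.96 and 20.1 FPKM, and Vehicle libraries had 20.2, 19.4, 21.4 and 19.5 FPKM. Every SE-BDEV library was above every CON-BDEV and every Vehicle library, and the CON-BDEV and Vehicle libraries overlapped.

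The means were 23.9 ± 0.662 FPKM with SE-BDEV, 19.2 ± 1.49 with CON-BDEV and 20.1 ± 0.941 with Vehicle (SD, n = 4 each). The SE-BDEV mean was 1.24 times that of CON-BDEV and 1.19 times that of Vehicle, and the CON-BDEV mean was 0.955 times that of Vehicle. On the log2(FPKM + 1) scale, which understates changes of low genes, the direct difference of SE-BDEV minus CON-BDEV was 0.30 (standard error 0.0527). Of the 11312 genes in that fit, Alg14 had the smallest p, and this is part of how it came to be described first. Its size lay above that of 99.6% of the genes. In limma with Benjamini-Hochberg adjustment, 0 of the 11312 genes passed an adjusted p of 0.05 in this comparison, Alg14 included (296 genes had an unadjusted p under 0.05).

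**Figure D1:**
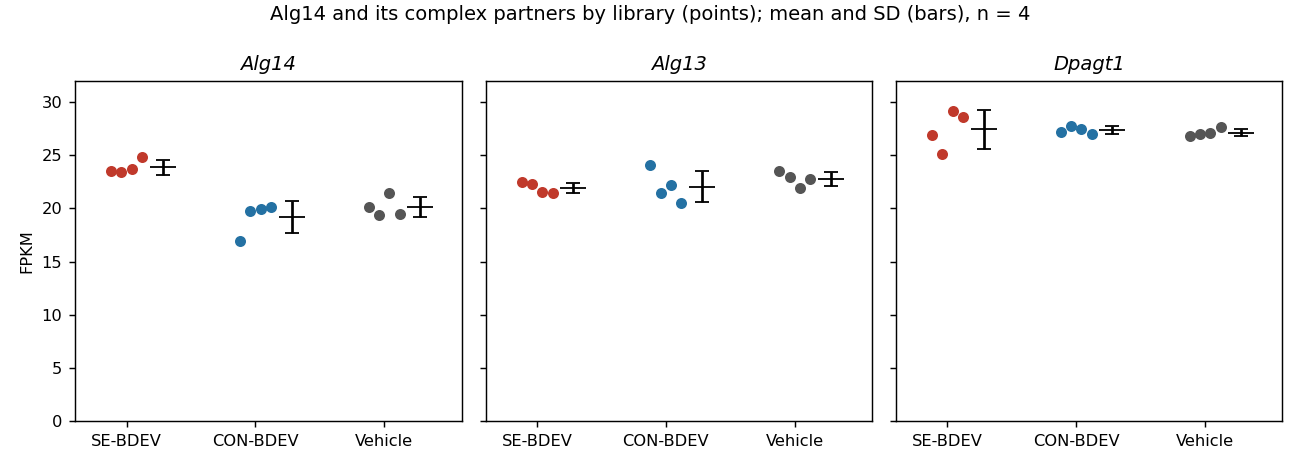
FPKM (y axis, from 0) of Alg14, Alg13 and Dpagt1 in each library (points) of the SE-BDEV, CON-BDEV and Vehicle groups, with mean and SD as bars (n = 4 each). The 4 SE-BDEV points of Alg14 lie between 23.4 and 24.8, above all others of that gene, while the groups overlap for Alg13 and Dpagt1.

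Against Vehicle, the same gene rose with SE-BDEV by 0.24 on the log2 scale (standard error 0.0427, limma adjusted p = 0.0324). It was 1 of 10 genes of the group to pass, where 0.919% of the 11311 genes tested passed in either direction, 0.292% rose and 0.628% fell. The choice of Alg14 with its values known means that this call is not independent evidence. With CON-BDEV it differed from Vehicle by −0.07 (95% interval −0.19 to 0.06, adjusted p = 0.561). These comparisons share the 4 Vehicle libraries. The authors' deposited table gave Alg14 a log2 fold change of 0.247 with p = 0.0159 and q = 0.345 for SE-BDEV against Vehicle and did not mark it significant.

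The call against Vehicle was close to the threshold. It was lost without SE-BDEV replicate 1 (adjusted p = 0.0743), replicate 3 (0.0702) or replicate 4 (0.0631), and without Vehicle replicate 1 (0.110), replicate 2 (0.121), replicate 3 (0.0682) or replicate 4 (0.126). Without SE-BDEV replicate 2 it was kept (0.0218). The log2 fold change stayed between 0.22 and 0.27 in these 8 fits. Each library held roughly 460 to 720 fragments of Alg14 by the depth estimate, a counting error of 3.7 to 4.6%, beside a coefficient of variation of 2.77% in SE-BDEV libraries, 7.77% in CON-BDEV libraries and 4.68% in Vehicle libraries. In bulk RNA, a change in the share of cells that express the gene and a change in RNA per cell cannot be told apart.

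Alg14 lies on chromosome 3 from 120994734 to 121064929 in the build mm9, as the deposited tables give it. Alg13 lies on chromosome X from 140752508 to 140808991. The GENCODE annotation places the same-strand small RNA gene Gm26027 over Alg14 and opposite-strand genes over Alg13 (the pseudogene Gm2214) and Dpagt1 (the antisense gene Gm48853), so reads there could be shared. The RefSeq table of promoters (GRCm38.p6) held 8 of the 10 genes, without Dpagt1 and Alg2. The stretches of 250 bases that end just before the gene's start are shown for Alg14 and Alg13, which act together as an enzyme. Dpagt1, from which Alg14 also went apart in level, had no entry. Both genes shown are on the plus strand, at chr3:121291490-121291739 and chrX:144317716-144317965. Capitals mark the letters of motifs searched on both strands.
Alg14: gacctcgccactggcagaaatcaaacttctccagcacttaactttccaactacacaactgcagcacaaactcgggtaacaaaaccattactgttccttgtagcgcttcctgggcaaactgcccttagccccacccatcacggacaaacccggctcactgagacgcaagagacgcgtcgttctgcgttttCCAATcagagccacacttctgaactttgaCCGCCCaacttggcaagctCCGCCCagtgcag
Alg13: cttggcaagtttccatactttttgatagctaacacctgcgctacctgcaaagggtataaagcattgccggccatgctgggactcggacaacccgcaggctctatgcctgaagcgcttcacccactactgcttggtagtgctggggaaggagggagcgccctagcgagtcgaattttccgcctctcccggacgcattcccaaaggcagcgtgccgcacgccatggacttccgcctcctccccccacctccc
The Alg14 stretch held the CCAAT box (CCAAT) and the GC box (GGGCGG, here on the minus strand as its complement), and the Alg13 stretch held neither. Of 32851 promoter stretches of the same length, 33.8% held CCAAT and 32.7% held GGGCGG, so both are common. Among the 8 stretches, CCAAT was in those of Alg14 and Alg3, and GGGCGG in those of Alg14, Alg1, Alg6, Alg8 and Alg5. The E-box (CACGTG, 6.02% of all stretches), the cAMP response element (TGACGTCA, 1.55%), an XBP1 element (TGACGTGG, 0.563%) and a sterol element (TCACNCCAC, 1.05%) were in 0 of the 8. The NRF1 core (GCGCATGCG, 1.45%) was in that of Alg8. G and C made up 53.2% of the Alg14 stretch and 59.2% of the Alg13 stretch, against a median of 52.4% over all.

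Alg13, the catalytic partner, was not higher with SE-BDEV. Its levels were 22.4, 22.3, 21.6 and 21.5 FPKM in SE-BDEV libraries, 24.0, 21.5, 22.2 and 20.5 in CON-BDEV libraries and 23.5, 22.9, 22.0 and 22.8 in Vehicle libraries. All 3 groups overlapped. The log2 fold change was −0.05 with SE-BDEV against Vehicle (95% interval −0.13 to 0.03, limma adjusted p = 0.549) and −0.05 with CON-BDEV against Vehicle (−0.15 to 0.06, adjusted p = 0.626). SE-BDEV and CON-BDEV means were 22.0 ± 0.483 and 22.1 ± 1.49 FPKM (SD, n = 4 each), and the interval of their difference ran from −0.10 to 0.09.

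Dpagt1, which transfers GlcNAc phosphate onto dolichol phosphate and is the target of tunicamycin, differed little between groups. It had 27.0, 25.1, 29.2 and 28.6 FPKM in SE-BDEV libraries, 27.2, 27.8, 27.5 and 27.0 in CON-BDEV libraries and 26.8, 27.0, 27.1 and 27.7 in Vehicle libraries. The SE-BDEV libraries spread around the other groups on both sides. The log2 fold change was 0.01 with either kind of vesicle against Vehicle (limma adjusted p = 0.916 for SE-BDEV and 0.846 for CON-BDEV), and the interval of SE-BDEV minus CON-BDEV ran from −0.09 to 0.09.

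Within each library, the ratio of Alg14 to its partners set the SE-BDEV group apart from both others. The ratio of Alg14 to Alg13 was 1.05, 1.05, 1.10 and 1.16 in SE-BDEV libraries, 0.706, 0.917, 0.900 and 0.981 in CON-BDEV libraries and 0.857, 0.844, 0.975 and 0.856 in Vehicle libraries. It was above 1 in every SE-BDEV library and below 1 in every other library. The group means were 1.09 ± 0.0506 for SE-BDEV, 0.876 ± 0.119 for CON-BDEV and 0.883 ± 0.0616 for Vehicle (SD, n = 4 each). Leaving out any 1 library kept the mean log2 ratio of SE-BDEV minus CON-BDEV between 0.22 and 0.38 and that of SE-BDEV minus Vehicle between 0.27 and 0.35. For CON-BDEV minus Vehicle it was −0.02, with values from −0.08 to 0.08 when 1 library was left out, positive without CON-BDEV replicate 1 and without Vehicle replicate 3.

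The ratio of Alg14 to Dpagt1 was 0.871, 0.933, 0.811 and 0.869 in SE-BDEV libraries, 0.624, 0.710, 0.725 and 0.744 in CON-BDEV libraries and 0.751, 0.718, 0.791 and 0.705 in Vehicle libraries. Again no SE-BDEV library overlapped the others, although the lowest SE-BDEV ratio lay close to the highest Vehicle ratio. Alg14 enters both ratios and was chosen with its values known, so neither was tested.

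**Figure D2:**
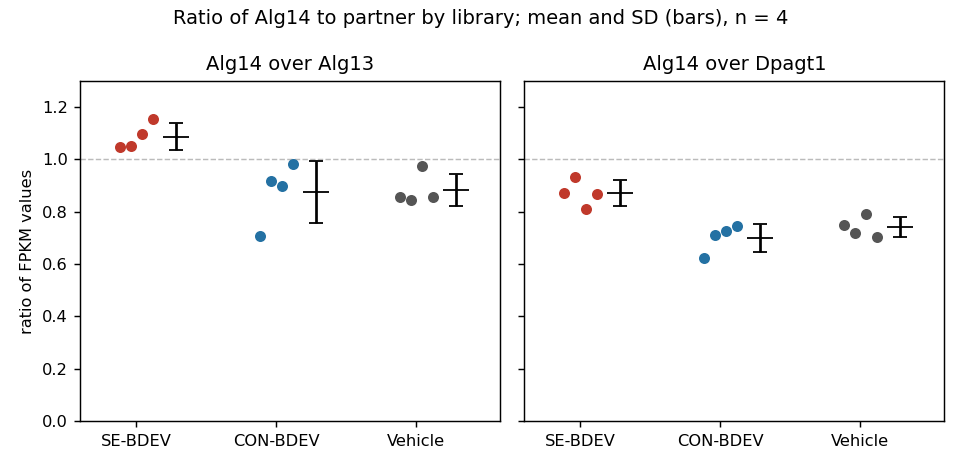
Ratio of Alg14 FPKM to Alg13 FPKM and to Dpagt1 FPKM (y axis) in each library (points), with mean and SD as bars (n = 4 per group). SE-BDEV ratios to Alg13 lie between 1.05 and 1.16, while those of CON-BDEV and Vehicle lie below 1.

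The mannosyltransferases of the cytosolic face were not called. Alg1, which adds the first mannose, was lowest with CON-BDEV: 10.7, 13.2, 11.8 and 11.3 FPKM in SE-BDEV libraries, 10.4, 11.9, 10.8 and 11.4 in CON-BDEV libraries and 12.6, 12.4, 12.3 and 13.7 in Vehicle libraries. Every CON-BDEV library was below every Vehicle library, and the SE-BDEV libraries overlapped both groups. With CON-BDEV against Vehicle the log2 fold change was −0.18 (95% interval −0.29 to −0.07, limma adjusted p = 0.0838), which passed only when CON-BDEV replicate 2 was left out (−0.21, adjusted p = 0.0480). With SE-BDEV against Vehicle it was −0.11 (adjusted p = 0.438). In the deposited tables Alg1 shares its locus with the opposite-strand gene Eef2kmt, and no source used here states the strand setting of the counting, which leaves its values less certain. Eef2kmt itself had 6.15 ± 0.128 FPKM with SE-BDEV, 6.24 ± 0.433 with CON-BDEV and 6.29 ± 0.780 with Vehicle (SD, n = 4 each).

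Alg2, which adds the next mannoses, was the most abundant of the 10. It averaged 30.7 ± 0.429 FPKM with SE-BDEV, 31.0 ± 0.690 with CON-BDEV and 31.5 ± 1.05 with Vehicle (SD, n = 4 each). The groups overlapped, with log2 fold changes of −0.03 for SE-BDEV and −0.02 for CON-BDEV against Vehicle and −0.01 between the vesicle groups.

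On the lumenal face, Alg9 was the gene among the 10 that set SE-BDEV apart from both other groups in the other direction. Alg9 is a mannosyltransferase that uses dolichol-phosphate mannose. Its levels were 10.2, 9.59, 10.4 and 10.5 FPKM in SE-BDEV libraries, 11.05, 10.8, 11.7 and 10.7 in CON-BDEV libraries and 10.6, 11.7, 12.2 and 11.6 in Vehicle libraries. Every SE-BDEV library was below every CON-BDEV and every Vehicle library, by a narrow gap. The opposite-strand protein-coding gene 1110032A03Rik overlaps Alg9 in the annotation, which leaves its values less certain too. The SE-BDEV mean was 11.8% below Vehicle, with a log2 fold change of −0.17 (95% interval −0.28 to −0.05) that did not pass (limma adjusted p = 0.177, and 0.169 to 0.374 when any 1 library was left out). CON-BDEV against Vehicle gave −0.06 (adjusted p = 0.576), and SE-BDEV minus CON-BDEV gave −0.11 (adjusted p = 1.00).

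Alg3, the first mannosyltransferase of the lumenal face, averaged 24.3 ± 1.02 FPKM with SE-BDEV, 24.1 ± 2.09 with CON-BDEV and 24.6 ± 1.70 with Vehicle (SD, n = 4 each). The annotation places opposite-strand genes, Vwa5b2 and Eef1akmt4 among them, over its locus. Its groups overlapped, and its log2 fold changes were −0.02 for SE-BDEV and −0.03 for CON-BDEV against Vehicle.

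The glucose steps did not separate the groups either. Alg6, which adds the first glucose, was the lowest of the 10 and varied most within the SE-BDEV group: 5.77, 6.09, 4.49 and 4.56 FPKM in SE-BDEV libraries, 4.73, 5.20, 5.47 and 5.70 in CON-BDEV libraries and 5.16, 5.39, 5.08 and 4.89 in Vehicle libraries. Its SE-BDEV libraries fell on both sides of all Vehicle libraries, a coefficient of variation of 15.7%. Alg8, which adds the next glucose, averaged 20.4 ± 1.62 FPKM with SE-BDEV, 20.3 ± 1.52 with CON-BDEV and 19.9 ± 1.14 with Vehicle (SD, n = 4 each). Alg5, which makes the dolichol-phosphate glucose that both of these enzymes use, averaged 28.9 ± 3.26 FPKM with SE-BDEV, 28.8 ± 1.15 with CON-BDEV and 28.05 ± 1.45 with Vehicle. For these 3 genes every log2 fold change against Vehicle lay between 0.01 and 0.04, with 95% intervals that reached from −0.18 to 0.21 for Alg6 with SE-BDEV.

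**Figure D3:**
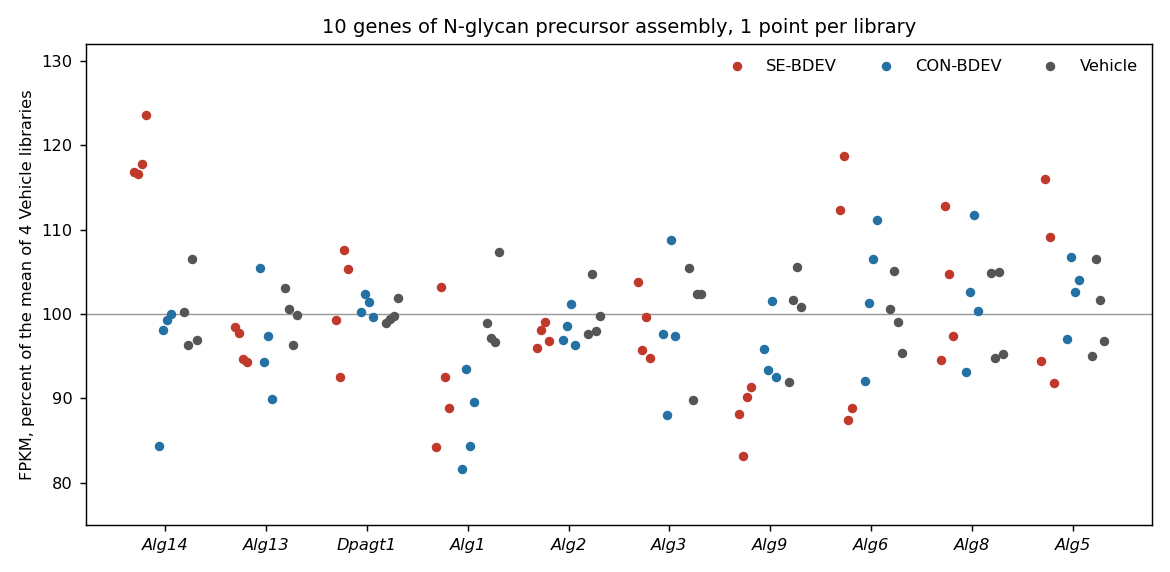
FPKM of each of the 10 genes in each library as a percent of the mean of the 4 Vehicle libraries (y axis, not from 0), with SE-BDEV, CON-BDEV and Vehicle libraries from left to right within each gene. The SE-BDEV points of Alg14 stand above those of both other groups, those of Alg9 stand below, and the CON-BDEV points of Alg1 stand below Vehicle.

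Counted together, the 10 genes did not shift one way. Against Vehicle, 5 were higher and 5 lower with SE-BDEV, with a median log2 fold change of −0.00302 against 0.01 over all genes tested. With CON-BDEV, 4 were higher and 6 lower than Vehicle, with a median of −0.03 against 0.00 over all genes, and 0 of 10 passed where 2.84% of 11320 genes did. In SE-BDEV against CON-BDEV the median was −0.000301 against 0.01, and 0 of 10 passed where 0% of the genes did.

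The groups did not overlap for 2 of 10 genes in SE-BDEV against Vehicle (Alg14 and Alg9), where 10.2% of all genes did not overlap. In CON-BDEV against Vehicle it was 1 of 10 (Alg1), where 11.9% did not. In SE-BDEV against CON-BDEV it was 2 of 10, again Alg14 and Alg9, where 1.39% did not, but the group of genes was put together with this comparison known. For 10 genes, counts of 1 and 2 lie near the shares of the comparisons with Vehicle.

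**Figure D4:**
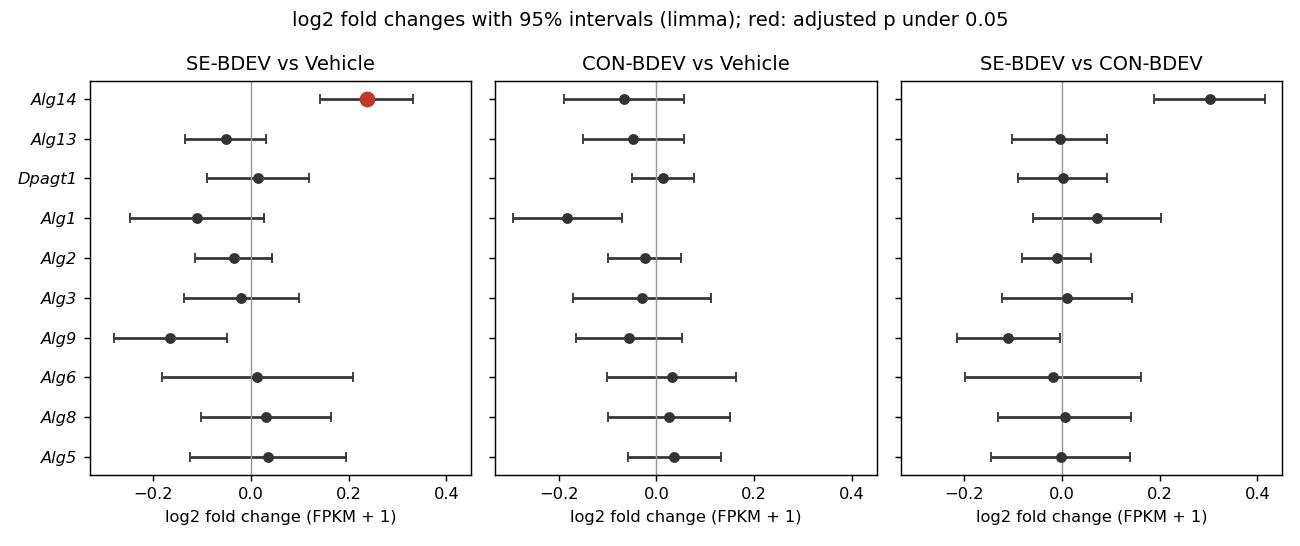
Log2 fold changes of the 10 genes on the log2(FPKM + 1) scale (x axis) with limma 95% intervals, for SE-BDEV against Vehicle, CON-BDEV against Vehicle and SE-BDEV against CON-BDEV. Only Alg14 with SE-BDEV against Vehicle (0.24, red) passed an adjusted p of 0.05.

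The pathway around these genes was followed in 9 lists with 83 genes, from dolichol synthesis to ER chaperones, of which 80 reached 1 FPKM. Man1a, Mgat4a and Gfpt2 did not. With SE-BDEV against Vehicle, 1 of the 80 rose (Alg14, the gene selected on its values) and 0 fell, beside 0.292% and 0.628% of all genes. CON-BDEV against Vehicle gave 1 that rose (Calr) and 1 that fell (Uap1), beside 1.02% and 1.82% of all genes. In SE-BDEV against CON-BDEV 0 passed, as did 0% of all genes. The median log2 fold change over the lists was 0.01 with SE-BDEV against Vehicle, 0.00 with CON-BDEV against Vehicle and 0.00 between the vesicle groups, against 0.01, 0.00 and 0.01 over all genes.

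Uap1 makes UDP-GlcNAc, the sugar donor of both Dpagt1 and the Alg13 and Alg14 enzyme. It averaged 20.1 ± 1.22 FPKM with SE-BDEV, 20.3 ± 0.599 with CON-BDEV and 23.3 ± 0.558 with Vehicle (SD, n = 4 each), and every vesicle library was below every Vehicle library. The fall passed with CON-BDEV (log2 fold change −0.19, limma adjusted p = 0.0166) and missed the threshold with SE-BDEV (−0.20, adjusted p = 0.0826). The SE-BDEV and CON-BDEV values are not shown to differ by this. That call did not hold without CON-BDEV replicate 4 (adjusted p = 0.0543) and without Vehicle replicate 1 (0.0555), replicate 2 (0.0620) or replicate 3 (0.0575), and with the replicate number as a block (0.0666).

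Calr encodes calreticulin, a lectin chaperone that binds trimmed N-glycans on folding proteins. Its mean was 547 ± 42.2 FPKM with SE-BDEV, 545 ± 23.7 with CON-BDEV and 483 ± 1.72 with Vehicle (SD, n = 4 each). The rise passed with CON-BDEV (log2 fold change 0.17, limma adjusted p = 0.0140) and not with SE-BDEV (0.18, adjusted p = 0.144). It was lost with CON-BDEV when Vehicle replicate 1 was left out (adjusted p = 0.0516), with the replicate number as a block (0.0571) and with no trend (0.0605). With SE-BDEV it passed only without SE-BDEV replicate 2 (0.23, adjusted p = 0.00376), which at 484 FPKM was the only SE-BDEV library within the Vehicle range. The authors' deposited tables marked 0 of the pathway genes as significant in either comparison, where they marked 140 genes in all for SE-BDEV and 215 for CON-BDEV.

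Among the remaining lists, the furthest gene of each did not pass. In oligosaccharyltransferase, the subunit gene Krtcap2 had the largest change with both kinds of vesicle, −0.19 with SE-BDEV and −0.17 with CON-BDEV against Vehicle (limma adjusted p = 0.0886 and 0.106). The levels were 209 ± 11.8 FPKM with SE-BDEV, 212 ± 16.1 with CON-BDEV and 238 ± 10.4 with Vehicle (SD, n = 4 each). Of the Golgi genes, the galactosyltransferase gene B4galt1 was furthest, at 0.13 with SE-BDEV and 0.15 with CON-BDEV (adjusted p = 0.368 and 0.0841).

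For the dolichol-linked sugars, genes of dolichol-phosphate mannose synthase were furthest against Vehicle: Dpm2 at 0.14 with SE-BDEV (adjusted p = 0.337) and the low Dpm1 at −0.21 with CON-BDEV (adjusted p = 0.460). In dolichol synthesis they were the reductase gene Srd5a3 at −0.12 with SE-BDEV and the kinase gene Dolk at −0.14 with CON-BDEV. In glycan trimming they were Engase at 0.21 with SE-BDEV and the glucosidase gene Mogs at 0.12 with CON-BDEV. In the chaperone list the furthest gene with CON-BDEV was Dnajb9, an ER co-chaperone, at 0.20 (adjusted p = 0.373).

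Between the vesicle groups, the furthest genes outside the 10 were Srd5a3 at −0.18 and Alg12, the lumenal mannosyltransferase that acts between the steps of Alg9, at −0.18. Alg12 averaged 11.2 ± 0.290 FPKM with SE-BDEV, 12.9 ± 1.21 with CON-BDEV and 11.3 ± 1.11 with Vehicle (SD, n = 4 each). Every SE-BDEV library of Alg12 (10.9 to 11.6 FPKM) was below every CON-BDEV library (11.7 to 14.4), where 1.39% of all genes did not overlap. Its Vehicle libraries (9.71 to 12.3) overlapped both groups. Alg12 was also the furthest of the lumenal list with CON-BDEV against Vehicle, at 0.17 (limma adjusted p = 0.243). The furthest of the other lists in SE-BDEV against CON-BDEV were Mpdu1 (−0.12), Dnajb9 (−0.11), Engase (0.09), Mgat1 (0.08), Gmppa (−0.07) and Tmem258 (0.06), all with an adjusted p of 1.00.

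**Figure D5:**
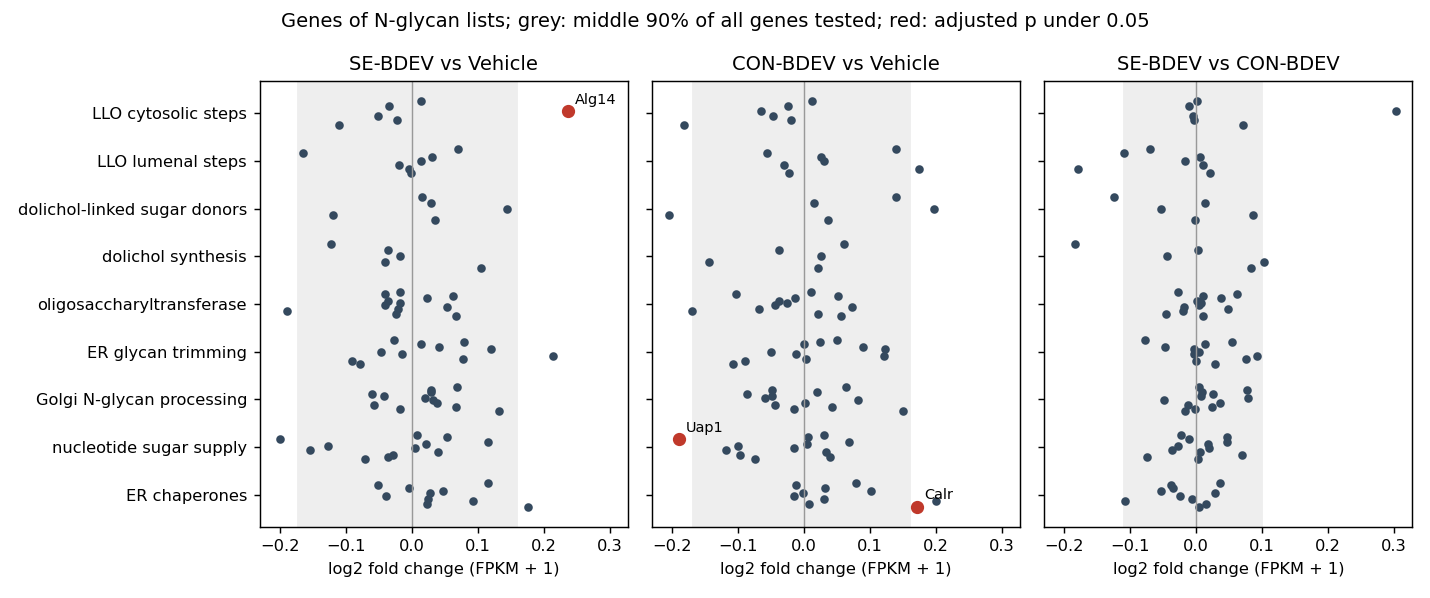
Log2 fold changes on the log2(FPKM + 1) scale (x axis) of the measured genes of 9 pathway lists (rows, 1 point per gene) in each comparison; LLO stands for lipid-linked oligosaccharide, the grey band spans the middle 90% of all genes tested, and red marks an adjusted p under 0.05. Alg14, Uap1 and Calr are the only red points, and Alg14 lies far right of its list in both SE-BDEV panels.

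By its profile over the 12 libraries, Alg14 was most like genes of other functions. Of 11312 genes, the highest Pearson correlations on the log2(FPKM + 1) scale were those of Phc1 (r = 0.830), a Polycomb subunit gene, Oaz2 (0.810), an ornithine decarboxylase antizyme gene, the corepressor gene Ctbp2 (0.757), Atp6ap2 (0.756), of the vacuolar proton pump, and the translation factor gene Eif4g3 (0.754). None of these 5 passed in any comparison, and their changes with SE-BDEV against Vehicle were 0.03 to 0.09. They are a description, since the points share group, library and depth. For the other 9 genes of precursor assembly the same r ran from −0.54 for Alg9 and −0.487 for Alg13 to 0.293 for Alg8.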

How the data were processed

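Polyadenylated RNA of N2a cells was sequenced in 12 libraries, in groups read from the labels. The authors deposited FPKM per gene and library in one table for SE-BDEV with Vehicle and another for CON-BDEV with Vehicle; TopHat2, Cuffdiff and the build mm9 are named in the submitters' processing notes, without versions. The authors' own comparison tables hold, per the file headers, FPKM by group together with log2 fold changes, p-values and q-values. No source used here states the annotation, read filters or strand setting.

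The 10 genes, the pathway lists and the markers were chosen with earlier results of these data known. The same 4 Vehicle libraries stand in both tables, on a scale that differed by at most 0.0335% per library, so values were joined and Vehicle averaged over both tables. The tests were limma fits (version 3.58.1, R 4.3.3; moderated by empirical Bayes with a trend, two-sided) of log2(FPKM + 1). They covered all genes whose mean reached 1 FPKM, with Benjamini-Hochberg adjustment over all of them and a threshold of 0.05. Each comparison with Vehicle used the 8 libraries of its own table, and SE-BDEV against CON-BDEV used all 12. The scripts were tested on simulated data. Besides the 10 genes, the text names list genes that passed, the gene of each list with the largest absolute fold change in each comparison, the 5 genes most correlated with Alg14, and Eef2kmt for its shared locus. Depth was estimated as a median over genes above 0 and at most 0.05 FPKM, each taken as a single fragment. GENCODE vM21 lengths (longest transcript, 1500 to 8000 bases) were used. Where such genes hold more fragments the estimate is too low, so depth, fragment numbers and counting errors are approximate. Errors from it cover counting only. Alternatives were another pseudocount (0.1), no filter, median scaling, no trend, a replicate block and leaving out each library. Figures were drawn with matplotlib 3.10.9.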

Additional observations from a re-analysis of the deposited data

Results flagged for a closer look

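In each of 36 sets of 4 libraries (the 10 genes and both ratios in each group), the gap between the most distant library and its neighbour was set against the whole range. It passed Dixon's critical value in 2 sets, and chance marks about 1 in 20. CON-BDEV replicate 1 of Alg14, at 17.0 FPKM, lay far below the other CON-BDEV libraries, with a gap of 0.876 of the range. Without it, Alg14 in SE-BDEV minus CON-BDEV was 0.25 on the log2 scale, against 0.30 with all libraries. The ratio of Alg14 to Alg13 in Vehicle replicate 3, at 0.975, lay above the other Vehicle libraries, with a gap of 0.902 of the range.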

How the results depend on the processing

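The rise of Alg14 with SE-BDEV against Vehicle kept its value of 0.24 on the log2 scale but not its call with no filter on low values (limma adjusted p = 0.0714), with no trend (0.0523) or with a replicate block (0.10). It kept the call with a pseudocount of 0.1 (0.0325) and with median scaling (0.0316). Leaving out 1 library gave 0.22 to 0.27, with adjusted p from 0.0218 to 0.126. In SE-BDEV against CON-BDEV it ranged from 0.25 to 0.33 and never passed. Of 405 alternatives for the other 9 genes, 404 stayed uncalled; 34 changed sign, from values of at most 0.03.

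Genes called over the whole table moved more. SE-BDEV against Vehicle gave 104, but 0 with no filter (2021 at an unadjusted p under 0.05), 48 with the replicate block, and 5 to 315 when 1 library was left out (5 without Vehicle replicate 2, 315 without SE-BDEV replicate 2). CON-BDEV against Vehicle gave 321, but 176 with no filter, 135 with the replicate block, 183 with no trend, and 134 to 556 when 1 library was left out. SE-BDEV against CON-BDEV gave 0 throughout. The main fits did not pair libraries by replicate number. Of 12 same-numbered pairs, 2 deviated together with a correlation over 0.1 (range −0.12 to 0.30). In 2 of 12 the library matched its own number best. Both cases paired SE-BDEV with CON-BDEV, in replicate 1 (0.196) and replicate 2 (0.298). Replicates 3 (−0.0738) and 4 (−0.123) of these groups went the other way. Whether the vesicle libraries are paired by number is not settled by these values. Depth limits Alg6 most, with a counting error of 5.7 to 6.7%. The causes were not tested.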
